A study of Mus musculus with 6 samples.

Results

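The genes described here encode 8 peptidases of the kidney and 1 peptidase substrate: *Agt* (angiotensinogen), *Ace*, *Enpep*, *Anpep*, *Mme*, *Dpp4*, *Mep1a*, *Mep1b* and *Klk1*. They were taken by symbol from the deposited expression table, and all 9 of them have a row among its 12125 genes. The table holds 6 libraries of sorted kidney cells labelled as fibroblasts, 3 from *Trf1+/+*; *Col1a2*-CreERT2 mice and 3 from *Trf1flox/flox*; *Col1a2*-CreERT2 mice. *Trf1* (gene symbol *Terf1*) encodes a protein of the shelterin complex that binds telomeres, and its floxed alleles are removed by Cre. Both genotypes carried the KFP lox-STOP-lox reporter (Katushka fluorescent protein) and a tamoxifen-inducible Cre driven by the *Col1a2* promoter. Mice of both genotypes received tamoxifen 3 times a week for 8 weeks, starting at 6 to 8 weeks of age. The paper's whole cohort held males and females, and how the sexes fell among these libraries is not stated. Cells were sorted with antibodies to CD29, an integrin, and to KFP, and the gate of the sequenced cells is not stated. Each library was made from 500 cells by oligo(dT) priming and PCR, and the paper does not state that each came from 1 mouse. The libraries are called replicates 1 to 3 of their genotype, and the numbers pair no mice. The question these members answer is how the brush border peptidases and the angiotensin precursor stood in the sorted cells, and whether their levels differed by genotype.

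The angiotensin system starts from angiotensinogen, which renin cuts to angiotensin I. Angiotensin-converting enzyme (*Ace*) makes angiotensin II from it, and aminopeptidases and neprilysin shorten these peptides further. In the kidney many of these enzymes sit on the brush border, the dense microvilli of proximal tubule cells, where they degrade filtered peptides. Tissue kallikrein (*Klk1*) is made in the distal nephron instead and releases kinins from kininogens, and *Ace* breaks kinins down again.

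The label fibroblasts was checked against marker genes. Of 12 fibroblast markers 2 were analysed here. *Col1a2*, whose promoter drives the Cre, had at most 2 reads in any library, and *Dcn* (decorin) had 0, 0 and 93.6 normalized counts in *Trf1+/+* replicates 1 to 3 and 0.859, 97.3 and 39.3 in *Trf1flox/flox* replicates 1 to 3. All 15 proximal tubule markers had a row, and their summed level was 17471 to 96542 in *Trf1+/+* and 25454 to 128774 in *Trf1flox/flox* libraries. All 10 markers of the loop of Henle and distal nephron had a row, and their sums were 74313 to 126519 and 56463 to 156561. The markers analysed here thus go against the label, and the cells are called sorted kidney cells below. In such bulk samples fewer cells of a type and less RNA per cell cannot be told apart.

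The libraries held 10263382 to 12248797 reads on the listed genes, and 1 read was worth 0.689 to 1.09 normalized counts. Normalized counts of the targeted gene *Terf1* were 0.891 (1 read), 253 and 235 for replicates 1 to 3 labelled *Trf1+/+*, against 110.0, 7.65 and 12.4 for those labelled *Trf1flox/flox*. The groups overlapped, with a log2 fold change of -1.04 (standard error 2.22, adjusted p = 0.996 from limma), and *Trf1flox/flox* replicate 1 kept 110.0. The library labelled *Trf1+/+* replicate 1 thus had a lower value than any *Trf1flox/flox* library, and neither the cause nor the label was tested. Its median normalized count over all genes was 13.4, against 118 to 148 in the other 5 libraries. *Xist*, the RNA of the inactive X chromosome, had 1565 normalized counts in *Trf1flox/flox* replicate 1, 55.7 in *Trf1flox/flox* replicate 2 and 0 to 0.985 in the other 4 libraries. The Y-linked *Eif2s3y* had 0.859 in *Trf1flox/flox* replicate 1 and 397 to 1376 in the other 5 libraries, with 1138 in *Trf1flox/flox* replicate 2. That library thus held both *Xist* and Y-linked reads. *Xist* above 0.985 was found in *Trf1flox/flox* libraries alone. The labels give no sex per library. Counts with *Trf1flox/flox* replicate 1 left out are given in the closing section, and the part of sex in the results below was not tested.

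Most of the members are zinc metallopeptidases, and the coding sequences below show what they share. The signature searched for was HEXXH, read in frame on the coding strand only: a histidine codon, a glutamate codon, any pair of codons and a histidine codon. The histidines bind the zinc ion of the active site. *Ace* held 2 matches, and *Enpep*, *Mme*, *Anpep*, *Mep1a* and *Mep1b* held 1 each. The serine peptidases *Dpp4* and *Klk1* and the substrate *Agt* held 0 matches. Among the listed genes with a coding sequence, 396 of 10655 (3.72%) held at least 1 match. The following stretches of 45 bases from GENCODE vM21 transcripts on GRCm38 run 5′ to 3′ on the coding strand, with the histidine, glutamate and histidine codons in capitals.
*Ace*, first match: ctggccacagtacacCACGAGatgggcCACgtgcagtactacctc
*Ace*, second match: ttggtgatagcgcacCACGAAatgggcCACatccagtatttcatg
*Enpep*: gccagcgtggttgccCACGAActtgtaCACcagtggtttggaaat
*Anpep*: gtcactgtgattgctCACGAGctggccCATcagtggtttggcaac
*Mme*: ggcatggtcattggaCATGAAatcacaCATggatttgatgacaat
*Mep1a*: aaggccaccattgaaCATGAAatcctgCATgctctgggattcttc

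The *Ace* stretches lie at chr11:105972895-105972939 in coding exon 8 and chr11:105985079-105985123 in coding exon 20, both on the plus strand. The presence of 2 such stretches in *Ace* goes with the 2 catalytic domains for which the enzyme is known. The *Enpep* match lies at chr3:129309772-129309786 in coding exon 5 and the *Anpep* match at chr7:79839166-79839180 in coding exon 6, both on the minus strand, and the printed stretches run across a splice junction into the neighbouring exon. After the last capital codon both read cagtggtttgg, and both enzymes belong to the same aminopeptidase family. The *Mme* stretch lies at chr3:63362006-63362050 on the plus strand in coding exon 18, and the *Mep1a* stretch at chr17:43491644-43491688 on the minus strand in coding exon 7. Windows of 50 bases from the principal transcript of each member were compared with the transcripts of other genes. Only *Ace* (4.14%, with the antisense gene *Gm11651*) and *Klk1* (28.4%, with its *Klk1b* paralogs) had shared windows. The libraries do not mark strand, so reads of *Ace* and of *Gm11651* cannot be told apart where they overlap, over 295 bases of *Ace* exon. The same holds for *Dpp4* and *Gm13561* over 232 bases of all annotated *Dpp4* exons, though its principal transcript had 0 shared windows.

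*Klk1* was by far the most abundant member per length of exon, and *Mep1a* came next. The *Klk1* normalized count per kilobase of exon had a median of 11480.2 over the 6 libraries, with a range of 9079.7 to 16413, which placed the median at rank 35 of 11888 genes with an annotated length. *Mep1a* had a median of 355 per kilobase and a range of 70.8 to 937. The ranges of *Klk1* and *Mep1a* did not overlap, and neither did those of *Mep1a* and *Mme* on the exon length used here.

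The other 7 members had lower medians, in the order *Mme* (median 57.0 per kilobase), *Mep1b* (46.8), *Dpp4* (43.9), *Anpep* (41.9), *Enpep* (40.6), *Ace* (14.3) and *Agt* (10.5). Each of these overlapped its neighbour in range, and no neighbours among them kept their order in more than 4 of 6 libraries. This order is a description with no test. The length used is that of all annotated exons, which for *Mme* comes to 11542 bases although its principal transcript has 3345, so the level of *Mme* per length is understated where the shorter transcript is the one made. The separation of *Mme* from *Mep1a* and its overlap with *Mep1b* rest on this length and do not hold on the shorter one.

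**Figure D1:**
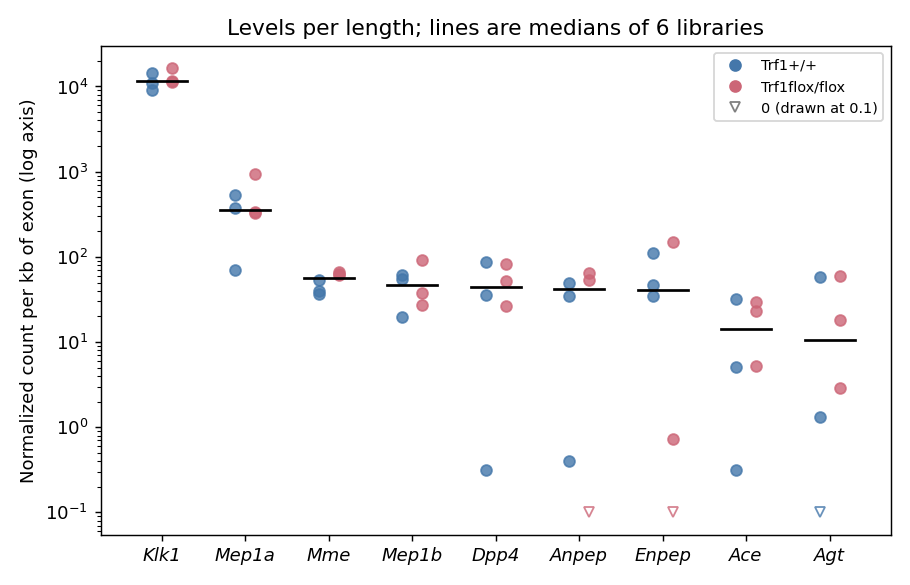
Normalized count per kilobase of exon (log axis) of each member in the 6 libraries, ordered by median, with a line at the median and open triangles for values of 0. *Klk1* lies between 9079.7 and 16413 in every library, and *Mep1a* between 70.8 and 937, and *Mep1b*, *Dpp4* and *Enpep* reach above 70.8 in some libraries.

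Between the genotypes no member passed the test. Of the 9 members, 0 had an adjusted p under 0.05 from limma, over 9966 genes that reached 10 normalized counts in 3 or more libraries, and all 9 passed that filter. Over all tested genes limma called 0% at this threshold. At an unadjusted p under 0.05 limma called 0 members, against 454 of all tested genes (4.56%). edgeR and DESeq2 on the recovered reads called 0 members at either threshold. Over all 9966 tested genes edgeR called 0 at the adjusted threshold and 196 at the unadjusted one, and DESeq2 called 58 and 410. The log2 fold changes, *Trf1flox/flox* over *Trf1+/+* of the normalized count plus 1, were positive for 7 members and negative for 2, and their median was 0.58 against 0.20 over all tested genes, of which 55.9% were positive. The median of all tested genes was -0.02 without the library labelled *Trf1+/+* replicate 1, -0.04 with edgeR and -0.05 with DESeq2, and that of the members was then 0.59, 0.50 and 0.45. All 9 of the 95% intervals held 0, and 6 of the 9 fold changes were smaller than their standard error.

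**Figure D2:**
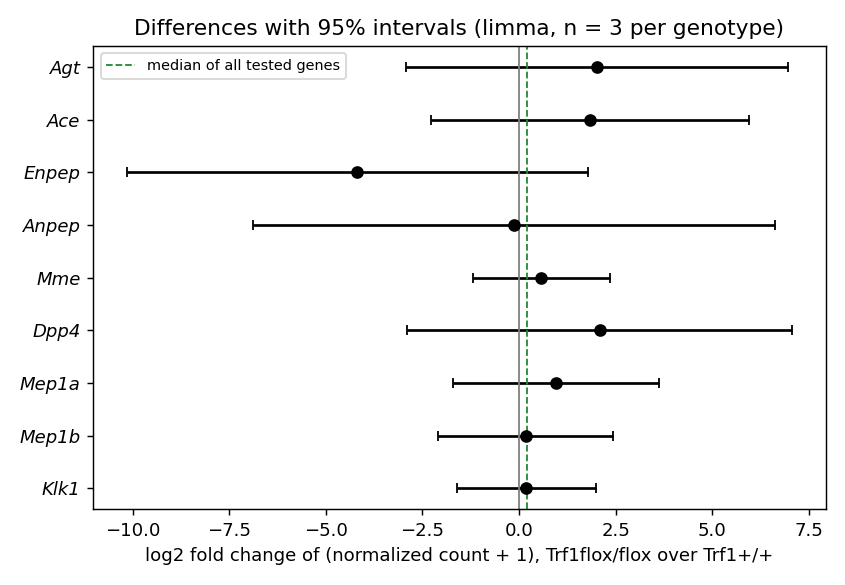
Log2 fold change of each member, *Trf1flox/flox* over *Trf1+/+*, with limma's 95% interval (bars, n = 3 libraries per genotype), a solid line at 0 and a dashed line at the median of all tested genes (0.20). Every interval holds 0, and the intervals of *Mme* (-1.19 to 2.34) and *Klk1* (-1.62 to 2.001) are the narrowest.

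What set the members apart from each other was how evenly the libraries held them. Of the 54 values of 9 members in 6 libraries, 7 were at or under 3 reads, taken as the floor of detection, and 3 of these were 0. They belonged to 5 members: *Agt* and *Anpep* in 2 libraries each, and *Ace*, *Enpep* and *Dpp4* in 1 library each. *Trf1+/+* replicate 2 held 3 of the 7 values (*Ace*, *Agt* and *Anpep*), *Trf1flox/flox* replicate 2 held 2 (*Enpep* and *Anpep*), and *Trf1+/+* replicates 1 (*Agt*) and 3 (*Dpp4*) held 1 each. The other 4 members, *Mme*, *Klk1*, *Mep1a* and *Mep1b*, were above the floor in every library. The reads carry no molecular identifiers, so this floor covers counting error only.

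**Figure D3:**
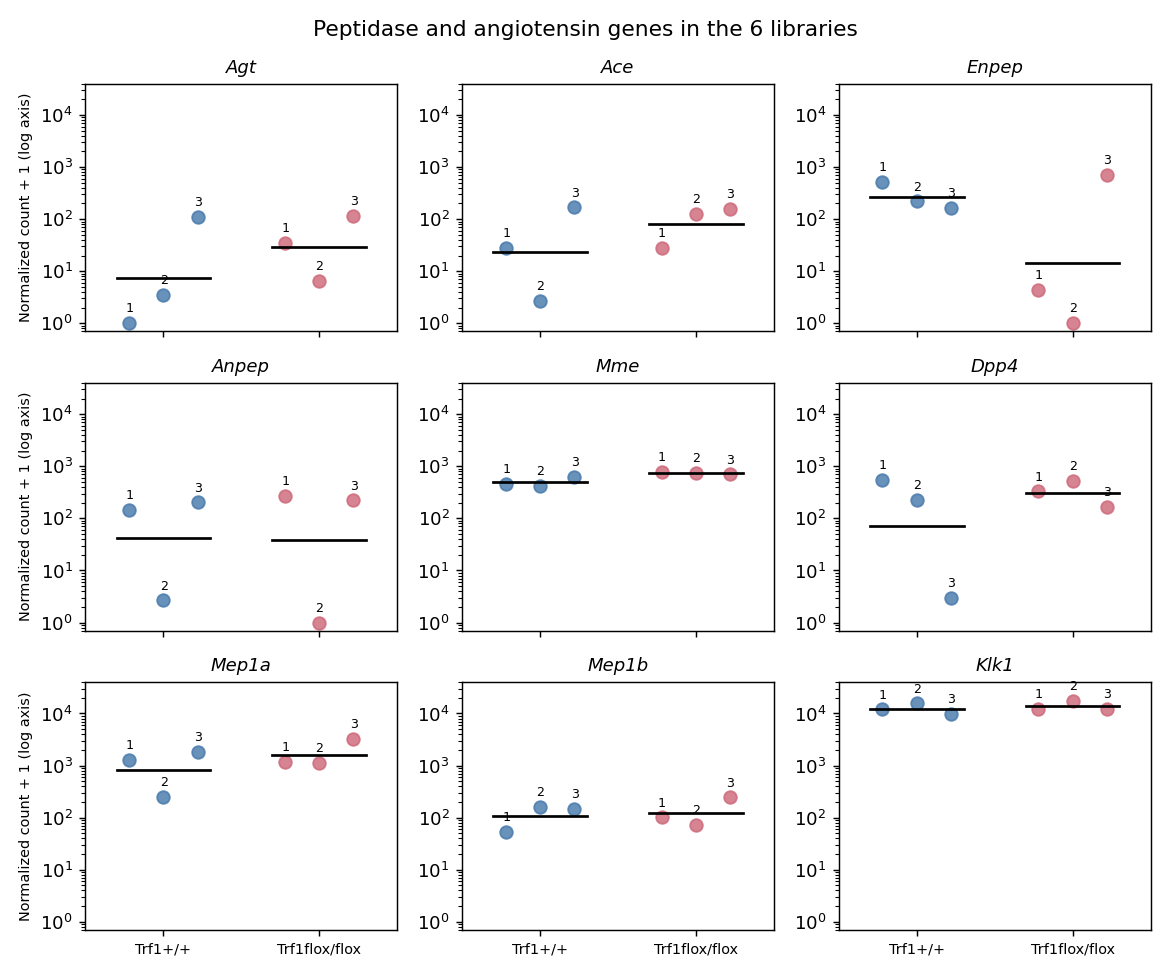
Normalized count plus 1 (log axis) of the 9 members in *Trf1+/+* (blue) and *Trf1flox/flox* (red) libraries, numbered by replicate, with a line at each genotype's mean on the log scale. *Mme* and *Klk1* vary by less than 2-fold over the 6 libraries, whereas *Agt*, *Enpep* and *Anpep* run from 0 to over 100 normalized counts.

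*Agt*, the precursor of all angiotensin peptides (ENSMUSG00000031980, chromosome 8, 124556534 to 124569706, minus strand), was low and uneven. It had 0, 2.49 and 109 normalized counts in *Trf1+/+* replicates 1 to 3 and 34.4, 5.46 and 112 in *Trf1flox/flox* replicates 1 to 3. The third library of each genotype was high and the groups overlapped. The means were 37.3 ± 62.4 and 50.7 ± 55.3 (SD, n = 3), and the log2 fold change was 2.02 (standard error 2.03, adjusted p = 0.996 from limma). It was 0.59 without *Trf1+/+* replicate 1, 3.12 without *Trf1flox/flox* replicate 2 and 0.45 with DESeq2.

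*Ace* (ENSMUSG00000020681, chromosome 11, 105967945 to 105989964, plus strand), which makes angiotensin II and degrades kinins, stood at 26.7, 1.66 and 168 normalized counts among *Trf1+/+* libraries. Among *Trf1flox/flox* libraries it stood at 27.5, 123 and 156. The lowest and the highest value both stood in *Trf1+/+* mice, so the groups overlapped. The log2 fold change was 1.83 (standard error 1.69, adjusted p = 0.996 from limma), and it was 0.27 without *Trf1+/+* replicate 2, 3.26 without *Trf1+/+* replicate 3 and 0.67 with edgeR. The mean log2 level of the 15 proximal tubule markers was 8.37, 8.16 and 11.13 in *Trf1+/+* replicates 1 to 3 and 8.67, 10.63 and 11.41 in *Trf1flox/flox* replicates 1 to 3, and the 3 libraries with the higher marker levels were those with over 100 normalized counts of *Ace*. The part of the markers in this result was not tested.

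*Enpep*, or aminopeptidase A (ENSMUSG00000028024, chromosome 3, 129269175 to 129332720, minus strand), removes the first, acidic residue of angiotensin II. It had 517, 219 and 164 normalized counts among *Trf1+/+* libraries, against 3.44, 0 and 702 among *Trf1flox/flox* ones. The lowest values and the highest were thus all in *Trf1flox/flox* mice, and the groups overlapped. The log2 fold change was -4.18 (standard error 2.45, 95% interval -10.16 to 1.79, adjusted p = 0.996 from limma), the farthest from 0 among the members, whereas the means of 299.9 ± 190.4 and 235 ± 404 (SD, n = 3) differed by less than the spread in either genotype. The value turned on a single library: without *Trf1flox/flox* replicate 3 the log2 fold change was -6.98 (unadjusted p = 0.00183 and adjusted p = 0.536 from limma), and edgeR on the reads of all 6 libraries gave -0.14.

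*Anpep*, or aminopeptidase N (ENSMUSG00000039062, chromosome 7, 79821803 to 79861059, minus strand), takes single residues from the start of peptides, angiotensin III among them. It had 144, 1.66 and 202 normalized counts among *Trf1+/+* libraries, against 266, 0 and 219.8 among *Trf1flox/flox* ones. In each genotype the second library was at the floor and the others lay between 144 and 266, and the groups overlapped. The log2 fold change was -0.14 (standard error 2.78, adjusted p = 0.998 from limma), while the mean was higher in *Trf1flox/flox* (162 ± 142) than in *Trf1+/+* mice (116 ± 103, SD, n = 3). Its sign turned under 8 of the 14 alternatives, so it has no direction here.

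*Mme*, or neprilysin (ENSMUSG00000027820, chromosome 3, 63241537 to 63386030, plus strand), cuts angiotensins, kinins and natriuretic peptides within the chain. It was the steadiest member within genotypes, with 454, 421 and 619 normalized counts among *Trf1+/+* libraries, against 768, 732 and 698 among *Trf1flox/flox* ones. Every *Trf1flox/flox* library lay above every *Trf1+/+* library, and *Mme* was the 1 member of 9 whose groups did not overlap. Among all tested genes 5.35% did not overlap with *Trf1flox/flox* higher, and 8.68% did not overlap in either direction, and 1 of 9 members read against these shares is no result about the members. The means were 498 ± 106 and 733 ± 35.05 (SD, n = 3). The log2 fold change was 0.58 (standard error 0.73, 95% interval -1.19 to 2.34, adjusted p = 0.996 from limma). The exact two-sided permutation test gave p = 0.1, the smallest that 3 libraries against 3 allow.

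The error that limma gave *Mme* was set largely by the other genes. The standard deviation of *Mme* within genotypes was 0.21 on the log2 scale, and 99.6% of the tested genes had a larger one, with a median of 2.17. When the prior was allowed to follow the expression level, the unadjusted p of *Mme* was 0.376 and the adjusted p 0.970 from limma. The separation of the groups was lost when the libraries were scaled to the same upper quartile or to the same total count, where the log2 fold changes were 0.85 and 0.72 and the medians of all tested genes 0.44 and 0.34.

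*Dpp4* (ENSMUSG00000035000, chromosome 2, 62330073 to 62412231, minus strand) is a serine peptidase that removes dipeptides from incretins and chemokines. It had 545, 226 and 1.97 normalized counts among *Trf1+/+* libraries, against 329, 519 and 165 among *Trf1flox/flox* ones. The value of 2 reads in *Trf1+/+* replicate 3 stood far below the other 5 libraries, which overlapped between genotypes. The log2 fold change was 2.09 (standard error 2.05, adjusted p = 0.996 from limma), and without that library it was -0.20.

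The meprins are astacin metallopeptidases of the brush border whose α and β subunits are encoded by *Mep1a* and *Mep1b*. *Mep1a* (ENSMUSG00000023914, chromosome 17, 43474324 to 43502812, minus strand) had 1292, 244 and 1847 normalized counts among *Trf1+/+* libraries, against 1162, 1117 and 3236 among *Trf1flox/flox* ones. The lowest library was *Trf1+/+* replicate 2, the highest was *Trf1flox/flox* replicate 3, and the groups overlapped. The log2 fold change was 0.95 (standard error 1.09, adjusted p = 0.996 from limma), and it was 0.06 without *Trf1+/+* replicate 2, 0.45 without *Trf1flox/flox* replicate 3 and 1.52 without *Trf1+/+* replicate 3.

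*Mep1b* (ENSMUSG00000024313, chromosome 18, 21061923 to 21100199, plus strand) had 51.7, 159.9 and 146 normalized counts among *Trf1+/+* libraries, against 99.7, 71.0 and 243 among *Trf1flox/flox* ones. These groups overlapped as well, with a log2 fold change of 0.17 (standard error 0.93, adjusted p = 0.996 from limma) that ran from -0.35 to 0.54 when 1 library was left out. The subunit genes did not keep 1 ratio: *Trf1+/+* replicate 2 was the lowest library for *Mep1a* and the second highest for *Mep1b*.

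*Mep1a* ran closely with *Lrp2*, which encodes megalin, the endocytic receptor of the proximal tubule. After each gene was centred on its mean over the 6 libraries, the root mean square difference between *Mep1a* and *Lrp2* was 0.13 on the log2 scale, the smallest that *Mep1a* had with any tested gene. *Lrp2* had 2162, 474 and 3999.6 normalized counts among *Trf1+/+* libraries, against 2548, 2056 and 6454 among *Trf1flox/flox* ones, a 13.6-fold range. Over that range the ratio of *Mep1a* to *Lrp2* stayed between 0.456 and 0.598. *Slc27a2*, a fatty acid transporter of the proximal tubule, was the third nearest gene to *Mep1a* (0.34), after *Polr3e* (0.34). *Mep1b* followed other genes, *Golt1b* (0.24), *Hdhd2* (0.27) and *Smim8* (0.33). These were the nearest among all tested genes and are a description with no test.

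**Figure D4:**
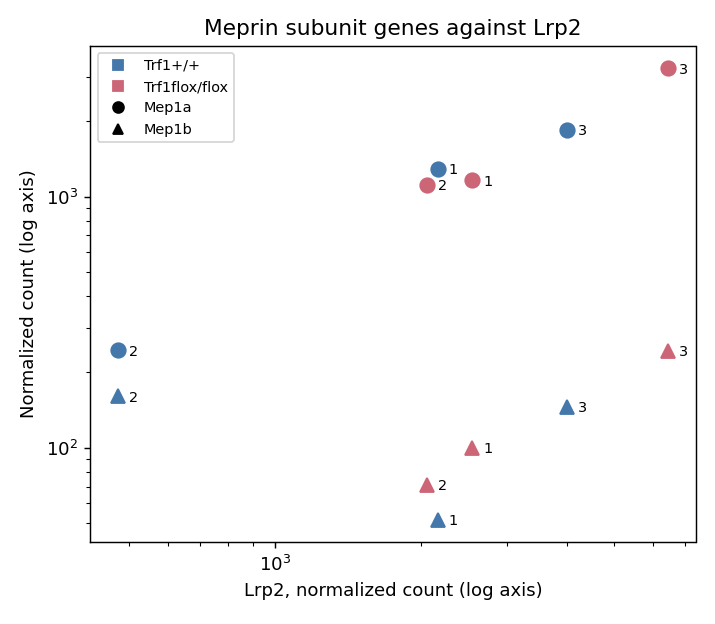
Normalized counts of *Mep1a* (circles) and *Mep1b* (triangles) against those of *Lrp2* in the 6 libraries (both axes log), coloured by genotype and numbered by replicate. *Mep1a* rises with *Lrp2* at a ratio of 0.456 to 0.598 in every library, and *Mep1b* does not keep such a ratio, with *Trf1+/+* replicate 2 at 159.9 where *Lrp2* is lowest.

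*Klk1* (ENSMUSG00000063903, chromosome 7, 44225360 to 44229618, plus strand) had 11925, 15550.5 and 9779 normalized counts among *Trf1+/+* libraries, against 12411, 17676 and 12317 among *Trf1flox/flox* ones. The groups overlapped, and the largest value was 1.81 times the smallest. The means were 12418 ± 2917 and 14135 ± 3067 (SD, n = 3), and the log2 fold change was 0.19 (standard error 0.74, 95% interval -1.62 to 2.001, adjusted p = 0.996 from limma), between 0.02 (without *Trf1flox/flox* replicate 2) and 0.37 (without *Trf1+/+* replicate 2) when 1 library was left out. Its standard deviation within genotypes was 0.32 on the log2 scale, and 98.4% of the tested genes had a larger one. The genes nearest to it were *Strap* (0.14), *D8Ertd738e* (0.15) and the ribosomal protein gene *Rpl11* (0.15).

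Mouse *Klk1* has a cluster of close paralogs, the *Klk1b* genes, and reads can be split among them. The paralog most like it, *Klk1b5*, matched 95.1% of its coding bases, and 60 bases near the end of the coding sequence (coding bases 718 to 777, at chr7:44229501-44229560 in exon 5 for *Klk1*) show where reads can tell them apart, with the 13 differing bases in capitals.
*Klk1*: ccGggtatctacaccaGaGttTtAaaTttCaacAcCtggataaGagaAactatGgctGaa
*Klk1b5*: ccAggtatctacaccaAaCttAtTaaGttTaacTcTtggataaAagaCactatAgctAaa

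Of 13 paralogs 4 were analysed here and 2 passed the filter. *Klk1b5* had 2.67, 22.4 and 5.91 normalized counts among *Trf1+/+* libraries, against 35.2, 1.09 and 28.9 among *Trf1flox/flox* ones, far below *Klk1* in every library. *Klk1b27* had 0, 0.829 and 0 among *Trf1+/+* libraries, against 86.8, 143 and 29.6 among *Trf1flox/flox* ones. It reached 10 normalized counts in the *Trf1flox/flox* libraries alone and passed the filter through them, so its separation is given as values with no test. Since *Trf1+/+* held 1 read in all, its fold change is not read as a result. The other 2 were each high in 1 *Trf1+/+* library: *Klk1b22* had 342 in replicate 1, and *Klk1b24* had 118 in replicate 2. With 28.4% of the *Klk1* windows shared with such paralogs, the counts of the paralogs are uncertain.

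The substrate of *Klk1* was also abundant. *Kng2*, a kininogen gene, had 8576, 12288 and 7884 normalized counts among *Trf1+/+* libraries, against 16248, 8985 and 7314 among *Trf1flox/flox* ones, with a log2 fold change of 0.12 (standard error 0.78, adjusted p = 0.996 from limma). *Kng1*, its paralog, was far lower and uneven, with 3.56, 254 and 147 among *Trf1+/+* libraries, against 159, 24.0 and 12.4 among *Trf1flox/flox* ones. *Cpn1*, the catalytic subunit of carboxypeptidase N, which trims kinins, had 1069.7, 205 and 419 among *Trf1+/+* libraries, against 214, 48.1 and 272 among *Trf1flox/flox* ones. Of the 9 kallikrein-kinin genes other than *Klk1*, 3 were tested and 0 had an adjusted p under 0.05, with 1 fold change positive, 2 negative and a median of -0.56.

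The remaining renin-angiotensin genes had no calls either. Of 18 on the list 7 were tested, 6 with a positive and 1 with a negative log2 fold change, and their median was 1.98 against 0.20 over all tested genes. This median rested on the library labelled *Trf1+/+* replicate 1, where the mean log2 level of the list was 3.52 against 6.38 to 7.73 in the other 5 libraries. Without that library 3 of the 7 were positive and the median was -0.09. In this list 0 genes had an adjusted or unadjusted p under 0.05. *Ctsa*, a carboxypeptidase of the lysosome, had 954, 699 and 947 normalized counts among *Trf1+/+* libraries, against 1765, 2132 and 1488 among *Trf1flox/flox* ones. It was the 1 gene of the 7 whose groups did not overlap, against 8.68% of all tested genes, with a log2 fold change of 1.05 (standard error 0.73, adjusted p = 0.996 from limma). *Nln*, or neurolysin, had 40.1, 418 and 0.985 among *Trf1+/+* libraries, against 106, 415 and 179.9 among *Trf1flox/flox* ones. *Atp6ap2*, the prorenin receptor, was the only tested gene of this list with a negative value, at 1909, 1967 and 1014 among *Trf1+/+* libraries, against 637, 1327 and 977 among *Trf1flox/flox* ones (log2 fold change -0.73, standard error 0.80). Renin (*Ren1*) was not analysed here.

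Among the other membrane peptidases 11 of 17 were tested, with 8 positive and 3 negative fold changes, a median of 0.67 and 0 genes under an adjusted or unadjusted p of 0.05. *Ggt1*, the γ-glutamyltransferase of the brush border, had 1334, 935 and 1966 normalized counts among *Trf1+/+* libraries, against 2055, 2830.4 and 2367 among *Trf1flox/flox* ones. Like *Mme*, it did not overlap between the groups, 1 gene of the 11, against 8.68% of all tested genes (log2 fold change 0.83, standard error 0.76, adjusted p = 0.996 from limma). *Erap1*, an aminopeptidase that trims peptides for antigen presentation, had 1.78, 48.9 and 0.985 among *Trf1+/+* libraries, against 324, 1.09 and 154 among *Trf1flox/flox* ones. *Dpep1*, a brush border dipeptidase, had 1013, 9.94 and 493 among *Trf1+/+* libraries, against 122, 1.09 and 691 among *Trf1flox/flox* ones. It was at its lowest in the same 2 libraries as *Anpep*, *Trf1+/+* replicate 2 and *Trf1flox/flox* replicate 2. *Tmprss2*, a serine peptidase of the cell surface, had 2766, 702 and 723 among *Trf1+/+* libraries, against 1578, 1044 and 464 among *Trf1flox/flox* ones.

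**Figure D5:**
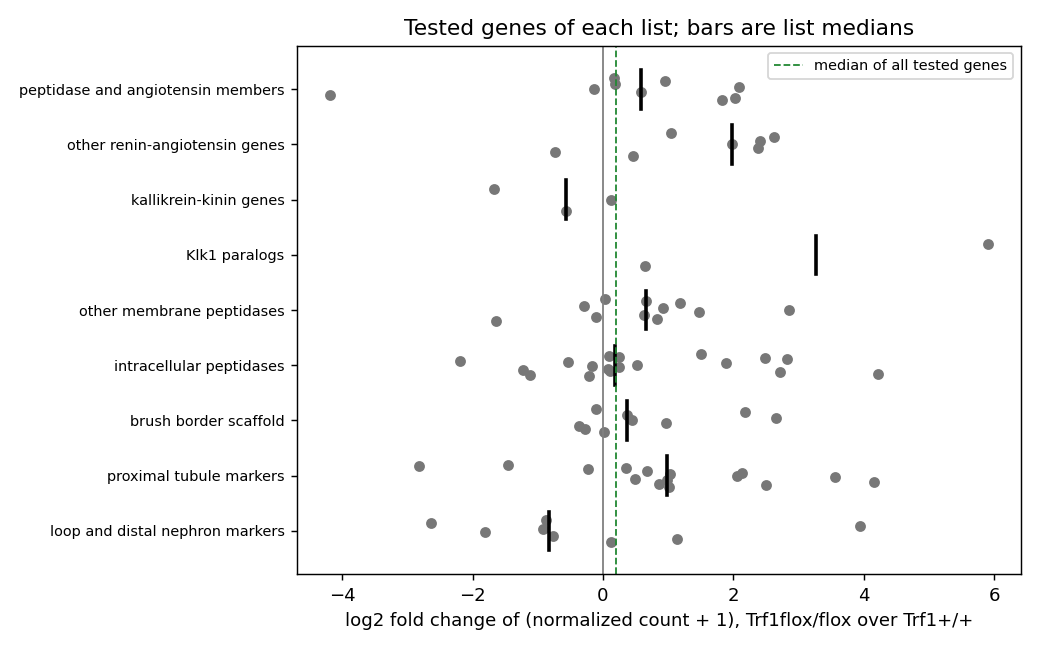
Log2 fold change, *Trf1flox/flox* over *Trf1+/+*, of each tested gene (points) in the members and in 8 other lists, with a bar at each list's median, a solid line at 0 and a dashed line at the median of all tested genes (0.20). The 7 other renin-angiotensin genes have a median of 1.98 (-0.09 without the library labelled *Trf1+/+* replicate 1), the 3 kallikrein-kinin genes one of -0.56, and the point at the far right is *Klk1b27*, which had 1 read in all *Trf1+/+* libraries. That point, and the median bar of the 2 *Klk1* paralogs that includes it, are not read as results.

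The nearest genes of the remaining members were found by the same measure. For *Ace* these were *Cyp2d9* (root mean square difference 0.43), *Xylb* (0.64) and *Syngr2* (0.67), and for *Agt* they were *Gm11423* (0.47), *Hexdc* (0.56) and *Hnrnpul1* (0.59). *Enpep* had the most distant ones, *Htra4* (0.71), *Zbtb14* (0.75) and *G6pdx* (0.82). *Htra4* and *G6pdx* were listed at 0 in *Trf1flox/flox* replicates 1 and 2, where *Enpep* had 3.44 and 0 normalized counts. *Anpep* was nearest to *Rabgef1* (0.39), *Dnttip2* (0.49) and *Tmed6* (0.55), and *Dpp4* to *Sfxn3* (0.36), *Bmpr2* (0.41) and *Dpyd* (0.47). *Mme* was nearest to *Ldha* (0.18), *Fam3a* (0.18) and *Mrps34* (0.18). Among the 36 pairs of members the closest were *Mme* and *Klk1* (0.44) and the most distant *Enpep* and *Dpp4* (4.98), and *Mep1a* and *Mep1b* stood at 1.28. All of these values are on the log2 scale over 6 libraries.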

How the data were processed

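RNA of 500 sorted kidney cells per library was sequenced in 3 *Trf1+/+* and 3 *Trf1flox/flox* libraries. The authors trimmed reads, aligned them to GRCm38 with TopHat2 2.0.10 and Bowtie 1.0.0 and counted them with HTSeq 0.6.1 on GENCODE genes. The submitters' processing notes name GRCm39 instead, and DESeq2. The authors deposited a signal per gene and library, the normalized count, in which reads are divided by 1 size factor per library. All values (100%) were whole multiples of the value of 1 read within 0.01 read, so the reads were recovered for the count models.

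Values were tested as log2(normalized count + 1) with limma 3.58.1 (R 4.3.3), two-sided, without covariates, over 9966 genes that reached 10 normalized counts in 3 or more libraries, with Benjamini-Hochberg adjustment over all of them. The fits were run on simulated counts with planted changes. These counts had far less spread than the libraries, so the run checked the code and not how the fits behave on these data. An exact permutation test of 3 libraries against 3 cannot go below p = 0.1. Alternatives were pseudocounts of 0.5 and 5, no filter on low values, upper quartile and total count scaling, a mean-variance trend, edgeR 4.0.16 and DESeq2 1.42.0 on the recovered reads, and leaving out each library. The paper gives 3 mice per genotype but does not state 1 mouse per library, and p-values measure the spread between these libraries. With 10263382 to 12248797 reads per library, 3 reads were taken as the floor.

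Exon lengths, positions and sequences came from GENCODE vM21 on GRCm38, and members were matched by symbol. The members and gene lists were chosen with earlier results of these data known. Named genes are all members, *Terf1*, of each other list the 2 tested genes with the smallest unadjusted p in each direction and genes set beside a member, and for each member the 3 genes with the smallest root mean square difference in centred log2 values. *Xist*, *Eif2s3y*, *Klk1b22*, *Klk1b24*, *Ren1*, *Ide*, *Slc22a8* and *Slc12a3* were named outside this rule, after their values were seen. The values of 1 gene of the lists are not reported here.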

Additional observations from a re-analysis of the deposited data

How the results depend on the processing

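Over the 14 alternatives 123 log2 fold changes of members were recomputed, of which 112 kept their sign, 11 reversed and 0 passed an adjusted p of 0.05. *Agt* could not be fitted without *Trf1+/+* replicate 3, *Trf1flox/flox* replicate 1 or *Trf1flox/flox* replicate 3, since it no longer passed the filter. The fold change of *Anpep* reversed to 0.19 with a pseudocount of 5, 0.22 with upper quartile scaling, 0.13 with total count scaling, 0.59 with edgeR and 0.50 with DESeq2. With 1 library left out it ran from -2.14 to 2.51, at 0.75 without *Trf1+/+* replicate 1, 0.99 without *Trf1+/+* replicate 3 and 2.51 without *Trf1flox/flox* replicate 2. *Mep1b* reversed to -0.35 without *Trf1+/+* replicate 1 and to -0.34 without *Trf1flox/flox* replicate 3, within a range of -0.35 to 0.54, and *Dpp4* to -0.20 without *Trf1+/+* replicate 3, within a range of -0.20 to 3.56. The cause was not tested. The number of tested members whose groups did not overlap fell from 1 to 0 under upper quartile and total count scaling, and was 1 to 2 with a library left out, where *Klk1*, *Ace*, *Anpep* or *Enpep* joined *Mme* and 14.6% to 25.5% of all tested genes did not overlap. Members under an unadjusted p of 0.05 numbered 0 to 1 with a library left out, the 1 being *Enpep* without *Trf1flox/flox* replicate 3. Over all genes, an unadjusted p under 0.05 was found for 454 by limma, 196 by edgeR and 206 to 792 with a library left out, and an adjusted p under 0.05 for 0 by limma and 58 by DESeq2. Without *Trf1flox/flox* replicate 1, the library with high *Xist*, 216 genes had an unadjusted p under 0.05 and 0 members did. No paired analysis was possible because the labels give the groups no shared replicate numbers. With 3 libraries a group, differences of several log2 units in members at the floor in 1 library could not be told from 0.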

Other observations

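The peptidases that finish the breakdown of peptides inside the cell gave no call between genotypes. Of 18 intracellular oligopeptide and dipeptide peptidases all 18 were tested, 12 with a positive and 6 with a negative log2 fold change, and 0 had an adjusted or unadjusted p under 0.05 from limma. Their median was 0.18, against 0.20 over all tested genes. *Acy1*, an aminoacylase, had 94.4, 61.3 and 309 normalized counts in *Trf1+/+* replicates 1 to 3 and 557, 597 and 279 in *Trf1flox/flox* replicates 1 to 3, and the groups overlapped through 1 library of each. *Dpp3*, a cytosolic dipeptidyl peptidase, had 0, 2.49 and 451 among *Trf1+/+* libraries, against 178, 345 and 163 among *Trf1flox/flox* ones. *Xpnpep1*, which removes residues before proline, had 799.9, 648 and 723 among *Trf1+/+* libraries, against 441, 20.8 and 416 among *Trf1flox/flox* ones. Its groups did not overlap, with a log2 fold change of -2.18 (standard error 1.36, adjusted p = 0.996 from limma). *Ide*, the insulin-degrading enzyme, did not overlap in the other direction, with 378, 99.4 and 209 among *Trf1+/+* libraries, against 1001, 397 and 462 among *Trf1flox/flox* ones (log2 fold change 1.51, standard error 0.91). Of the 18 genes 1 was thus apart in each direction, and 8.68% of all tested genes were apart in either, so this is no result about the list. *Npepps*, the puromycin-sensitive aminopeptidase, had 179.9, 466 and 418 among *Trf1+/+* libraries, against 152, 51.4 and 434 among *Trf1flox/flox* ones.

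Genes of the brush border scaffold, which shapes the microvilli that carry the peptidases, gave 9 tested genes of 10, with 6 positive and 3 negative log2 fold changes, a median of 0.37 and 0 genes under an adjusted or unadjusted p of 0.05 from limma. With upper quartile scaling 8 of the 9 were positive, with a median of 0.65 against 0.44 over all tested genes, of which 64.0% were positive. Without *Trf1+/+* replicate 1 the count was 5 and the median 0.08. It was 6 with a median of 0.06 by edgeR, and 5 with a median of 0.06 by DESeq2. *Cdhr5*, a protocadherin that links microvilli, had 8.91, 172 and 373 normalized counts among *Trf1+/+* libraries, against 1007, 502 and 311 among *Trf1flox/flox* ones. *Espn*, an actin bundler, had 0, 168 and 99.5 among *Trf1+/+* libraries, against 620.4, 12.02 and 194 among *Trf1flox/flox* ones. *Pdzk1*, a scaffold for brush border transporters, had 3907, 1354 and 3887 among *Trf1+/+* libraries, against 1799, 3341 and 1575 among *Trf1flox/flox* ones. *Ezr*, which ties the membrane to actin, had 1764, 2077 and 1489 among *Trf1+/+* libraries, against 2157, 1351 and 1052 among *Trf1flox/flox* ones. Both of the last genes overlapped between the groups, and their log2 fold changes were -0.37 ± 0.87 and -0.28 ± 0.76 (standard error).

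Markers of cell types other than tubule were uneven over the libraries. Of 8 endothelial markers 2 were analysed here, and their sum was 8.02 to 297 in *Trf1+/+* and 1.72 to 307 in *Trf1flox/flox* libraries. Of 10 immune markers 4 were analysed here, with sums of 279.8 to 1283 and 0 to 2513. Of 7 smooth muscle and pericyte markers 1 was analysed here, *Cspg4*, with 0, 0 and 37.4 among *Trf1+/+* libraries, against 173, 18.6 and 88.9 among *Trf1flox/flox* ones. All 6 red blood cell markers had a row, with sums of 239 to 10473 in *Trf1+/+* and 121 to 52768 in *Trf1flox/flox* libraries, the highest in *Trf1flox/flox* replicate 3. *Hba-a1* had 13.7 to 12286 normalized counts over the 6 libraries, *Hbb-bt* 0 to 3459, *Alas2* 0 to 293 and *Slc4a1* 0 to 1742. *Cd74*, the 1 immune marker that was tested, ran from 0 to 2513. Of 5 podocyte markers 0 were analysed here. Their part in the members' values was not tested.

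The tubule lists moved by library as well. The 15 proximal tubule markers had 12 positive and 3 negative log2 fold changes, with a median of 0.98. The 8 tested markers of the loop and distal nephron had 3 positive and 5 negative ones, with a median of -0.83. Over all tested genes the median was 0.20, and 55.9% were positive. The proximal tubule median was 0.75 without the library labelled *Trf1+/+* replicate 1, 0.60 with edgeR, 0.54 with DESeq2 and 1.26 with upper quartile scaling. The loop and distal median was then -0.31, -0.52, -0.52 and -0.55, and that of all tested genes -0.02, -0.04, -0.05 and 0.44. In both lists 0 genes had an adjusted p under 0.05 from limma. *Slc13a3*, a dicarboxylate transporter, had 115, 116 and 795 normalized counts among *Trf1+/+* libraries, against 692, 762 and 1457 among *Trf1flox/flox* ones, and *Aqp1*, a water channel, had 51.7, 51.4 and 454, against 900.5, 342 and 340.4. *Slc22a8*, an organic anion transporter, was the 1 proximal tubule marker of 15 whose groups did not overlap, against 8.68% of all tested genes. It had 0.891, 477 and 636 among *Trf1+/+* libraries, against 1049, 710.3 and 1264 among *Trf1flox/flox* ones. *Slc22a30* and *Slc7a13* had negative fold changes. *Slc22a30* was listed at 0 in *Trf1flox/flox* replicate 1 and had 13.4 to 2169 in the other 5 libraries. *Slc7a13* was listed at 0 in *Trf1flox/flox* replicate 1 and had 263 to 6106 normalized counts in the other 5 libraries. Among the distal markers, *Slc12a1*, the transporter of the thick ascending limb, had 1641, 11079.6 and 7646 among *Trf1+/+* libraries, against 26372, 12964 and 4250.4 among *Trf1flox/flox* ones. The water channel gene *Aqp2* was listed at 0 in 3 libraries and reached 16844 in *Trf1flox/flox* replicate 1, and *Aqp3* ran from 0 to 655. *Calb1*, a calcium-binding protein of the distal nephron, had 27371, 16529.8 and 11368 among *Trf1+/+* libraries, against 11124, 1341 and 7907 among *Trf1flox/flox* ones. Its groups did not overlap, with a log2 fold change of -1.82 (standard error 1.09, adjusted p = 0.996 from limma), and neither did those of *Slc12a3*, the transporter of the distal convoluted tubule, with 14271 to 18752 in *Trf1flox/flox* and 25899 to 35066 in *Trf1+/+* libraries. These were 2 of the 8 tested markers of that list, and 8.68% of all tested genes did not overlap in either direction.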
